A study of Mus musculus with 89 samples.

Results

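The comparison concerned lungs of PBS-challenged mice that received CuO PEG, a copper oxide nanomaterial coated with polyethylene glycol, at the highest and at the lowest dose used. By the sample labels, 3 samples belonged to the dose of 40 and 3 to the dose of 2.5, which makes 6 of the 89 samples of the series. The 4 samples given 10 lay between them, and the 7 PBS-challenged control samples were the background. All groups, controls included, were female BALB/c mice of 6 to 8 weeks that had been sensitised intraperitoneally with ovalbumin (OVA) in alum, so no group represents an unsensitised lung. On 4 consecutive days the mice of these groups received PBS alone (controls) or PBS with dispersed CuO PEG by oropharyngeal aspiration, a drop of liquid placed at the back of the throat that is breathed into the lung. Later comparisons use groups of 3 or 4 samples given CuO NH3, the methylaminated material, or core CuO, without coating, in PBS in the same way, and CuO PEG groups of 3 samples and 8 control samples whose aspirated PBS also held OVA (OVA challenge). Lung tissue was taken 24 h after the last administration, from part of the left lobe after the lungs had been lavaged. The sample descriptions give the dose in μg per day, the unit used here, while another label writes mg per mouse, and it is a mass of coated material rather than of copper. RNA of 2 extracts was pooled per sample and hybridised in 1 channel of a 2-colour Agilent array. The labels call these pools independent without saying which mice each pool held, and p-values measure the spread between pools.

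Macrophages that live in the airspaces take up inhaled particles. When they or the epithelium are disturbed, lung cells release chemokines, small secreted proteins that draw monocytes and neutrophils out of the blood, together with acute phase proteins such as the serum amyloids. Copper also binds thiol groups of proteins, and cells meet metals and misfolded proteins with metallothioneins, antioxidant enzymes and heat shock proteins.

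The 6 samples had a median foreground intensity of 67 to 78, which was 1.46 to 2.94 times the local background, with 53.6% to 64.4% of spots well above background and 0 spots saturated. Replicates of the same dose correlated at 0.9942 to 0.9976 over all genes. The samples at 40 lay on slides 4, 5 and 4 and those at 2.5 on slides 4, 5 and 6, each with 2 Cy3 samples and 1 Cy5 sample and no array in common. Levels are log2 intensities after dye, slide and array position were removed, and differences are log2 fold changes from limma with standard errors (SE) and Benjamini-Hochberg adjusted p-values. A gene was called changed at an adjusted p below 0.05 with an absolute log2 fold change above 0.58.

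Between 2.5 and 40, 603 of 22911 genes changed (2.63%), of which 445 rose (1.94%) and 158 fell (0.69%). With 75th percentile scaling in place of quantile normalisation the split was 371 to 70, and with a term for each hybridisation in place of slide and position 996 genes passed. The median log2 fold change was 0.86 among the rises and -0.73 among the falls. More than a 2-fold difference was reached by 160 rises and 29 falls, and more than 4-fold by 21 rises and 1 fall. The samples of the doses did not overlap for all 445 rises and for 156 of the 158 falls. Over all genes they did not overlap for 16.2% in the higher and 16.9% in the lower direction.

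**Figure D1:**
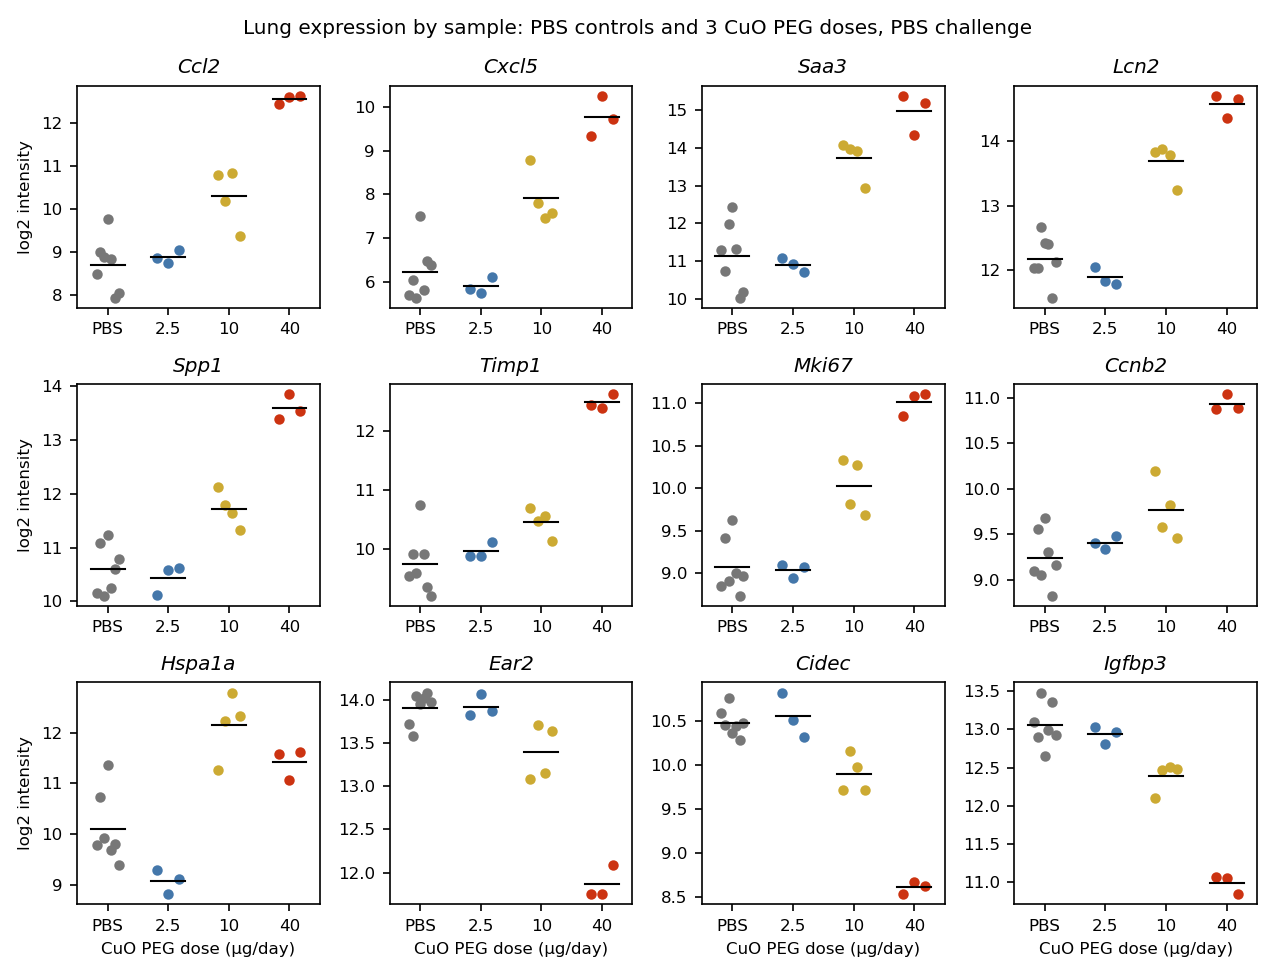
Log2 intensity of 12 genes in each sample of the 7 PBS controls and of CuO PEG at 2.5, 10 and 40 μg/day (points), with the group mean (line). Apart from Hspa1a, the samples at 2.5 sit within or near the controls and those at 40 stand apart. Hspa1a has its highest mean at 10, its samples at 2.5 lie below the controls, and not all at 40 lie above them.

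Of the 12 largest rises 4 were chemokines (Cxcl5, Ccl2, Ccl7 and Cxcl1) and 5 were acute phase genes, described further on. Ccl2, which attracts monocytes through the receptor Ccr2, measured 8.87, 8.76 and 9.06 at 2.5 and 12.44, 12.59 and 12.62 at 40. The controls had a lowest value of 7.95, a median of 8.85 and a highest of 9.76. All 3 samples at 40 thus lay above every sample at 2.5 and every control, and the samples at 2.5 lay inside the control range. The log2 fold change was 3.65 (SE 0.464, adjusted p = 7.74e-08), or 12.6-fold. Ccl7, another monocyte attractant, rose from 6.86, 6.59 and 7.04 to 10.17, 10.27 and 10.70 (log2 fold change 3.55, SE 0.5, adjusted p = 5.82e-07).

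Cxcl5, a neutrophil attractant made largely by epithelium, had no sample well above background at 2.5, where its spots read 5.83, 5.74 and 6.10. At 40 it measured 9.34, 10.25 and 9.73, so that it was at least 11.5-fold higher (adjusted p = 4.42e-07). Cxcl1, a related neutrophil attractant, rose from 7.65, 7.62 and 7.79 to 10.26, 10.53 and 10.37 (log2 fold change 2.70, SE 0.397, adjusted p = 1.44e-06). For both genes the groups were far apart, and the controls reached up to 7.51 for Cxcl5 and 8.42 for Cxcl1. Ccl17, which attracts T helper cells with the receptor Ccr4, rose from 8.60, 8.59 and 8.62 to 10.75, 10.96 and 10.70 (log2 fold change 2.20, adjusted p = 1.22e-08). Ccl3 and Ccl4, macrophage inflammatory proteins, rose by 2.23 and 2.31, and Cxcl10, an interferon-inducible T cell attractant, rose by 2.10. The Cxcl10 call was lost without replicate 3 at 2.5 (adjusted p = 0.0605) or without replicate 3 at 40 (adjusted p = 0.0627).

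Of 15 measured CC chemokines 8 rose and 0 fell, with a median log2 fold change of 1.03, and of 13 CXC chemokines 7 rose and 0 fell, with a median of 0.86, while the median of all genes was -0.01. The CC list gave 7 to 9 rises over all alternatives. The CXC list gave 3 to 10, with 3 without replicate 3 at 2.5 and 4 without replicate 3 at 40. The median of 14 chemokine receptors was 0.07, and Ccr2 rose by 0.70. Ccr2 did not pass without replicate 1 at 2.5 (0.53, adjusted p = 0.141) or without replicate 3 at 40 (0.64, adjusted p = 0.0615).

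The promoter of Cxcl1 is shown because its gene stood among the leading rises and a table of RefSeq promoters (GRCm38.p6) held it. The window is chr5:90890995-90891244, plus strand, 250 bases before the transcription start. Capitals mark a pair of overlapping matches to the NF-kB binding consensus (kappa-B), found on both strands, between 71 and 61 bases before the start.

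Cxcl1: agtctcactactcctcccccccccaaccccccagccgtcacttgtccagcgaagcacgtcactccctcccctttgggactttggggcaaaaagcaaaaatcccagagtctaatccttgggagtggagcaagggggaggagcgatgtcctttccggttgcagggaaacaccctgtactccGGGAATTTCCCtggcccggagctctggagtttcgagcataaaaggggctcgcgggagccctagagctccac

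The kappa-B consensus was present in 4 of 10 CXC chemokine promoters (40%), in 2 of 9 CC chemokine promoters (22.2%) and in 7.25% of all 32851 promoters of this length. A match is a description of letters and not a binding site. Of 14 genes known as feedback targets of NF-kB, 3 rose, and the list median was 0.45. They were the inhibitor Tnip3 (log2 fold change 1.32), Bcl3 (0.80) and the subunit gene Nfkb2 (0.58). Nfkb2 lay just past the fold threshold and was called in 9 of 19 alternatives. It dropped below the threshold, for example, without replicate 1 at 2.5 (0.52) or replicate 3 at 40 (0.55).

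Among 18 inflammatory cytokines 5 rose and 1 fell, with a median of 0.26. Csf2, which encodes the macrophage growth factor GM-CSF, rose from 7.60, 7.46 and 7.57 to 8.57, 8.91 and 8.75 (log2 fold change 1.20, SE 0.161, adjusted p = 2.02e-07). Il33, an alarm cytokine of epithelium, rose from 9.01, 9.21 and 9.0 to 9.97, 9.89 and 10.16 (0.94, adjusted p = 0.00105). Both were above all control samples at 40, the control maxima being 7.76 for Csf2 and 9.32 for Il33. Tnf rose by 0.76 (adjusted p = 0.015) and Il1b by 0.92 (adjusted p = 0.0479). In both, all samples at 40 were above those at 2.5, as for every called rise. The Tnf call was lost without replicate 1 at 2.5 (adjusted p = 0.0863) or replicate 3 at 40 (adjusted p = 0.106), and that of Il1b whichever sample was left out (adjusted p 0.0524 to 0.21). Il18 fell from 10.73, 10.70 and 10.67 to 9.89, 9.44 and 9.65 (log2 fold change -1.03, adjusted p = 0.0101), a call lost without replicate 2 at 40 (-0.88, adjusted p = 0.101). The list had 2 rises without replicate 1 at 2.5 or replicate 3 at 40 and 3 without replicate 2 at 2.5 or replicate 1 at 40. Il6 did not pass the test, with a log2 fold change of 0.90 (adjusted p = 0.0709), though it did in 7 of 19 alternatives, among them the replicate number as a block (0.92, adjusted p = 0.0322), and was not well above background in any sample at 2.5.

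Acute phase proteins formed the other group of large rises. Saa3, the serum amyloid made locally in lung, measured 11.08, 10.94 and 10.72 at 2.5 and 15.36, 14.34 and 15.18 at 40. The controls ran from 10.04 to 12.44 with a median of 11.29, so every sample at 40 was above them and the samples at 2.5 lay among them. Its log2 fold change of 4.05 (SE 0.6, adjusted p = 1.64e-06), or 16.5-fold, was the largest fitted among the called genes, although Cxcl5 has only a lower bound. Lcn2, an iron-siderophore binding protein, rose from 12.05, 11.82 and 11.77 to 14.71, 14.36 and 14.66 (adjusted p = 3.06e-08), which is 6.48-fold. Saa1 rose by 3.52 and Saa2 by 2.35, and Orm1 and Orm2, the orosomucoids, by 2.95 and 2.66. Probes of each of these pairs may read both genes, since Saa1 and Saa2, and likewise Orm1 and Orm2, are near-identical. For Saa3 and Saa1, replicate 2 gave the lowest value at 40. Their groups did not overlap, which held for all 445 called rises.

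Of 19 measured acute phase genes 13 rose and 0 fell, with a median of 0.90, and 11 to 15 rose over all alternatives. The promoters of Saa3, Saa1 and Lcn2 are shown for the motif TTGCNNAA, one form of the site bound by C/EBP factors, which stands in capitals and was searched on both strands. They are at chr7:46715677-46715926 (minus strand), chr7:46742981-46743230 (minus strand) and chr2:32387740-32387989 (minus strand), from RefSeq (GRCm38.p6), each written toward the transcription start.
Saa3: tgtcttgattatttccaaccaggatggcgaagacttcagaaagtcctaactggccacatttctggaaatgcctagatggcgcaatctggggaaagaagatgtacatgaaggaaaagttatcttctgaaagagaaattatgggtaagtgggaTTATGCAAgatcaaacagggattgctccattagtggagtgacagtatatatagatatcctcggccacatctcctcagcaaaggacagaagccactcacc
Saa1: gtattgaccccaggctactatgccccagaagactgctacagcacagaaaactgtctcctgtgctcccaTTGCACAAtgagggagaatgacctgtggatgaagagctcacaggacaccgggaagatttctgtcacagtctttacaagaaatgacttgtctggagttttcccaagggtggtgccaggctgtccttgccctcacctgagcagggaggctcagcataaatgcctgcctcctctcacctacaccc
Lcn2: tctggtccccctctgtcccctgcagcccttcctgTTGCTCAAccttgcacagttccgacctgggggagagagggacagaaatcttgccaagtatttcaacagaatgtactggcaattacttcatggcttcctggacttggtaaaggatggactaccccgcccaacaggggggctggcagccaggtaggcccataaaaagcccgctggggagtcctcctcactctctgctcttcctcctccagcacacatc
The motif lay 99 to 92, 182 to 175 and 216 to 209 bases before the start. It was present in 12 of 17 promoters of the acute phase list (70.6%) and in 9.56% of all promoters.

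**Figure D2:**
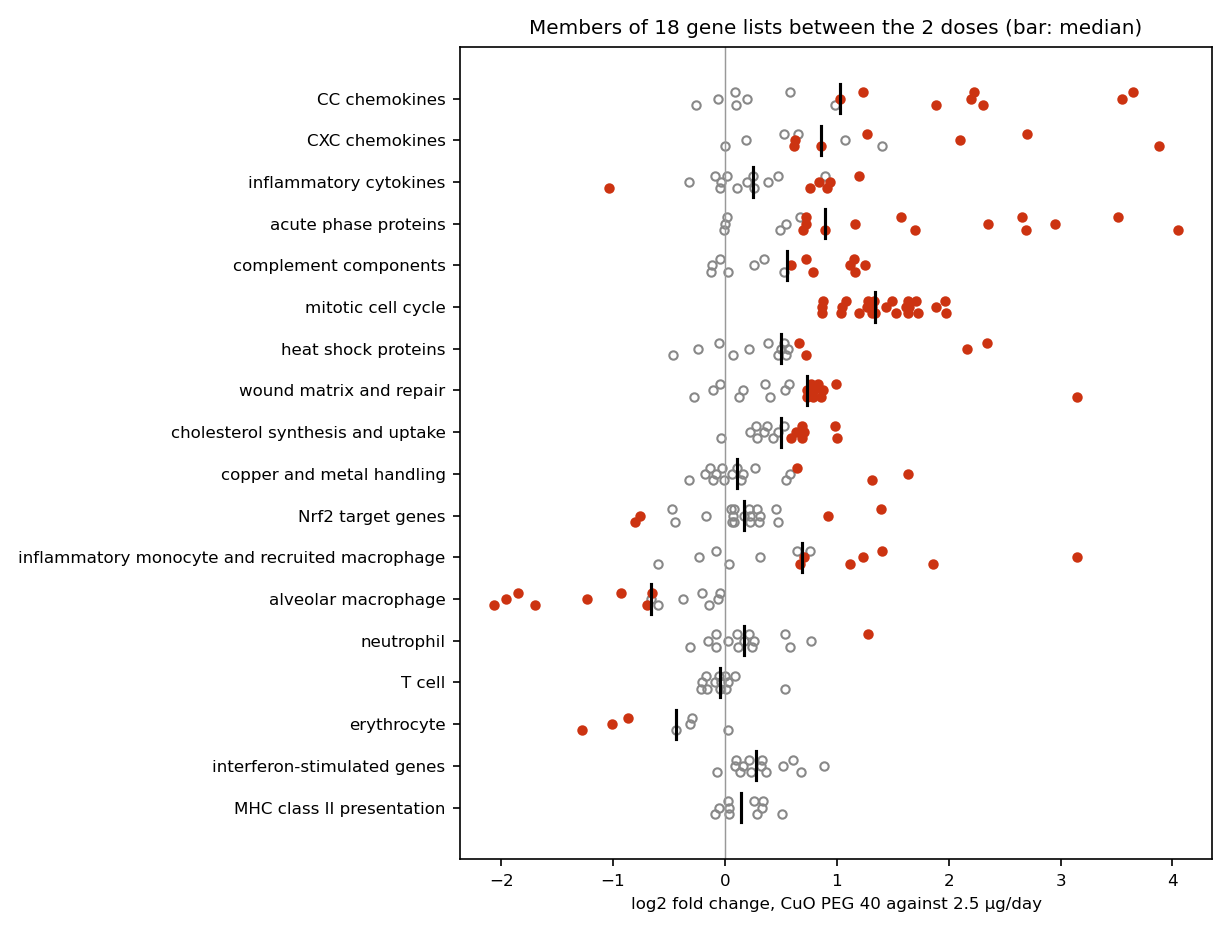
Log2 fold change of each member of 18 gene lists from 2.5 to 40 μg/day of CuO PEG, with called genes filled, other genes open and the list median as a bar. All 25 mitotic genes lie to the right of 0, and 8 called alveolar macrophage genes lie to the left.

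Genes of cell division rose as a group. Mki67, the proliferation marker Ki-67, measured 9.10, 8.94 and 9.07 at 2.5 and 10.86, 11.09 and 11.11 at 40, against 8.73 to 9.63 in the controls (median 8.97). Its values at 2.5 lay among the controls and those at 40 lay above all of them. The log2 fold change was 1.98 (SE 0.185, adjusted p = 4.79e-11). Rrm2, a subunit of the enzyme that makes deoxynucleotides, rose by 1.96, Ccna2, cyclin A2, by 1.89 and Top2a, which untangles DNA, by 1.72. Ccnb2, cyclin B2, rose from 9.40, 9.34 and 9.49 to 10.88, 11.04 and 10.89 (log2 fold change 1.53, adjusted p = 3.91e-08), and Cdc20, an activator of the anaphase-promoting complex, from 9.01, 8.99 and 9.10 to 10.49, 10.71 and 10.83 (1.65, adjusted p = 1.89e-08). All 25 measured mitotic genes rose, with a median of 1.34, and 24 to 25 did so over all alternatives.

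Promoters of Ccnb2 (chr9:70421555-70421804, minus strand) and Cdc20 (chr4:118437344-118437593, minus strand), again from RefSeq (GRCm38.p6), are shown because many cell cycle genes carry CCAAT boxes and cell cycle homology regions, here searched as CCAAT and TTTGAA on both strands and set in capitals.
Ccnb2: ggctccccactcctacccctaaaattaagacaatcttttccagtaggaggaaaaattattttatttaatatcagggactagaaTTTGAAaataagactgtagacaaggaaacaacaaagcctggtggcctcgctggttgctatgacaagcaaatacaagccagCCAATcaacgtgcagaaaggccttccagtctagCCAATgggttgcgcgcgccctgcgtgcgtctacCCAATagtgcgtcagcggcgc
Cdc20: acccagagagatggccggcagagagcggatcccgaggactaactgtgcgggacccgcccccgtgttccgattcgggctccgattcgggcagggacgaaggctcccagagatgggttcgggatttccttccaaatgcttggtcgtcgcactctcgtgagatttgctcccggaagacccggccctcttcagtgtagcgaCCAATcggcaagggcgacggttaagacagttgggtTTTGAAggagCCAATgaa
Ccnb2 held 3 CCAAT matches and 1 TTTGAA match, and Cdc20 held 2 and 1. CCAAT was found in 19 of 22 promoters of the mitotic list (86.4%) against 33.8% of all promoters, and TTTGAA in 8 of 22 (36.4%) against 16%.

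Heat shock genes had their highest levels at 10. Hspa1a, the inducible chaperone Hsp70, measured 9.29, 8.81 and 9.12 at 2.5, 11.27, 12.24, 12.79 and 12.33 at 10 and 11.58, 11.06 and 11.61 at 40. The controls reached from 9.38 to 11.36 (median 9.81), so all samples at 2.5 were below every control, and at 40 replicates 1 and 3 were above the highest control and replicate 2 was below it. From 2.5 to 40 the log2 fold change was 2.34 (SE 0.498, adjusted p = 0.000903), and from 2.5 to 10 it was 3.08 (SE 0.47, adjusted p = 4.9e-05). The difference between 40 and 10 was -0.74 (adjusted p = 0.455). Hspa1b, whose transcript is nearly the same and whose probe may read both, rose by 2.16 from 2.5 to 40 and by 3.35 from 2.5 to 10.

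Dnajb1, a co-chaperone of Hsp70, measured 12.45, 12.16 and 12.11 at 2.5 and 12.36, 12.01 and 12.20 at 40, which did not pass the test (log2 fold change -0.05, adjusted p = 0.942), and 13.08, 13.17, 13.48 and 13.38 at 10. It fell by 1.09 from 10 to 40 (adjusted p = 0.00024). All 4 of its samples at 10 stood above every sample of the other doses and every control. Hspa8, the constitutive member, rose by 1.15 from 2.5 to 10 and was lower at 40 than at 10 (log2 fold change -0.63, adjusted p = 0.0244). Of the 15 heat shock genes 4 rose from 2.5 to 40 (Hspa1a, Hspa1b, Hsph1 and Hspa5), 11 rose from 2.5 to 10, and 3 fell from 10 to 40. The mean was highest at 10 for 14 of the 15. From 2.5 to 40 the count was 7 without replicate 2 at 40, and Hsph1 (0.72, adjusted p = 0.0216) lost its call without replicate 2 or 3 at 2.5 or replicate 1 or 3 at 40 (adjusted p 0.0517 to 0.164). The falls from 10 to 40 were 5 without replicate 1 at 10 and 1 without replicate 3 at 10 or replicate 2 at 40. A fit of the groups compared alone called 0 genes for this step (limma, 2431 at an unadjusted p under 0.05). From 2.5 to 10, 0 rose with a term for each hybridisation (limma, which called 8 genes in all and gave 1975 at an unadjusted p under 0.05), 5 in a fit of the groups compared alone and 8 to 12 under the other alternatives, and the list median was between 0.69 and 0.96 in every one of them.

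The promoter of Hspa1a (chr17:34972157-34972406, minus strand, RefSeq, GRCm38.p6) is shown for the motif GAANNTTC, a core of the heat shock element, in capitals and searched on both strands.

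Hspa1a: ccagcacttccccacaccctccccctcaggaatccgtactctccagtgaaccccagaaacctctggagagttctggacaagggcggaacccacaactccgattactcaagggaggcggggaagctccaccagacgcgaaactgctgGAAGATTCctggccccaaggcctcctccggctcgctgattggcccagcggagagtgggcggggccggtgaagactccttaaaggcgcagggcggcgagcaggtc

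The match lay 104 to 97 bases before the start. GAANNTTC was found in 6 of 16 promoters of the heat shock list (37.5%) and in 6.69% of all promoters.

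Genes that mark resident alveolar macrophages fell. In tissue of lavaged lung, fewer cells of a type, whether lost before or in the lavage, and less RNA per cell cannot be told apart. Ear2, an eosinophil-associated ribonuclease that alveolar macrophages of mice also express, measured 13.83, 14.07 and 13.88 at 2.5 and 11.75, 11.75 and 12.09 at 40, with controls from 13.58 to 14.09 (median 13.97). The samples at 40 were below all others, and those at 2.5 were among the controls. Its log2 fold change of -2.06 (SE 0.28, adjusted p = 2.67e-07) was the largest fall among the called genes, 4.17-fold. Ear1 fell by 1.85, and because Ear1, Ear2 and Ear10 are near-identical their probes may share signal.

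Cidec, a lipid droplet protein, fell from 10.83, 10.51 and 10.33 to 8.53, 8.66 and 8.62 (log2 fold change -1.95, adjusted p = 1.23e-06). Fabp1, a fatty acid binding protein, fell from 10.27, 10.14 and 10.42 to 9.02, 8.39 and 8.34 (-1.70, adjusted p = 0.00247). Siglecf, a surface lectin of alveolar macrophages and eosinophils, fell from 9.24, 9.18 and 9.09 to 8.13, 7.65 and 8.03 (-1.23, adjusted p = 1.81e-07). For each of the 3 genes every sample at 40 was below every sample at 2.5 and every control. Of 15 alveolar macrophage markers 8 fell and 0 rose, with a median of -0.66, and 7 to 9 fell over all alternatives. Pparg, the nuclear receptor of this cell type, and Abcg1, a cholesterol exporter, fell by 0.65 and 0.70, while Marco (log2 fold change -0.66, adjusted p = 0.383) and Chil3 (-0.60, adjusted p = 0.553) did not pass the test. The summed linear intensity of the 15 markers ran from 37400 to 52700 in the controls, had a median of 42400 at 2.5 and ran from 19000 to 23000 at 40. Such a sum follows its brightest genes. The 4 measured Ear ribonucleases, of which Ear1 and Ear2 are among the 15, summed to medians of 22800 at 2.5 and 5800 at 40. Fpr1 and Fpr2, formyl peptide receptors of phagocytes, both fell by 1.37.

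Of 14 markers of monocytes and recruited macrophages 7 moved the other way, 0 were called lower and the median was 0.69. The 7 not called were Arg1, Chil3, F10, Fcgr1, Ly6c2, Ms4a8a and Plac8. The summed linear intensity of the 14 markers ran from 59600 to 64200 at 2.5 and from 68600 to 74900 at 40. The latter lay within the 61400 to 76200 of the controls. Spp1, osteopontin, measured 10.13, 10.58 and 10.62 at 2.5 and 13.40, 13.85 and 13.53 at 40, against 10.11 to 11.24 in the controls, and rose by 3.15 (SE 0.336, adjusted p = 1.38e-09). The samples at 40 were clear of both other groups. Ly6i, a Ly6 family surface protein, rose by 1.86, Gpnmb, a glycoprotein of lipid-laden macrophages, by 1.40, Trem2 by 1.23 and C1qa by 1.12. The list had 4 rises without replicate 3 at 40, where Gpnmb lost its call (1.12, adjusted p = 0.0683). Of 15 innate receptors 4 rose and 2 fell, the falls being Fpr1 and Fpr2, with a median of 0.21. The endotoxin co-receptor Cd14 rose from 9.92, 10.02 and 9.73 to 11.82, 11.91 and 11.98 (log2 fold change 2.01, adjusted p = 3.22e-09), and the scavenger receptor Msr1 by 1.61.

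Few neutrophil markers passed the test in the tissue left after lavage. The paper counted neutrophils in the lavage fluid, where it reports an influx after the CuO materials. In stained lung sections it also describes neutrophils with nuclear dust, fragments of cell nuclei, after core CuO at 40. Nuclear dust at 40 is reported there for all materials. Of 15 markers only Il1r2, a decoy receptor for interleukin 1, rose (1.28, adjusted p = 0.00257), and the median was 0.17. S100a8, a calcium-binding protein abundant in neutrophils, measured 11.94, 13.29 and 12.25 at 2.5 and 12.64, 12.73 and 12.76 at 40, so that replicate 2 at 2.5 was above all samples at 40. Its log2 fold change was 0.22, with a 95% confidence interval of -0.44 to 0.88.

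The other cell types showed few called markers. Of 11 alveolar type 2 markers 2 rose, Sftpd, surfactant protein D, from 15.99, 15.76 and 15.74 to 16.99, 16.96 and 16.74 (log2 fold change 1.06, adjusted p = 4.78e-05) and the chitinase-like Chil1 by 1.24. Of 10 B and plasma cell markers 1 fell, the antibody joining chain Jchain (-1.13, adjusted p = 0.00158), a call lost without replicate 3 at 2.5 (-0.86, adjusted p = 0.0742). Of 7 red cell markers 3 fell, Hbb-b1 by 1.28, Alas2 by 1.01 and Hbb-bt by 0.87, the last a call lost whichever sample was left out (adjusted p 0.0592 to 0.196), and this list gave 0 to 4 falls over all alternatives, with 0 without replicate 3 at 2.5 or replicate 1 at 40 and 1 without replicate 1 at 2.5 or replicate 2 at 40. The near-identical beta globin genes may share signal. Aldh1a1 was the only one of 8 club cell markers and Tppp3 the only one of 10 ciliated cell markers to fall, by 0.61 and 0.87. Aldh1a1 lost its call without replicate 1 or 2 at 2.5 or without any of the 3 samples at 40 (adjusted p 0.0552 to 0.168). By limma, 0 of 13 T cell, 9 NK cell, 8 mast cell, 8 dendritic cell, 8 alveolar type 1, 11 endothelial and 11 fibroblast and smooth muscle markers passed, and 1, 1, 1, 2, 5, 7 and 5 of them, in this order, had an unadjusted p under 0.05. Summed linear intensity at 40 was below every sample at 2.5 and every control for endothelial (68800 to 70200, lowest control 77600), ciliated (22700 to 24000, lowest control 31400) and eosinophil markers (811 to 858, lowest control 1060). Of the 7 eosinophil markers only Siglecf, also listed for alveolar macrophages, was called lower, and the list median was -0.2. Epx was not well above background in any control or CuO PEG sample after PBS. The sum at 40 was above every sample at 2.5 and every control for alveolar type 2 (586000 to 651000, highest at 2.5 492000) and platelet markers (3680 to 3970, highest at 2.5 2920). The part of any of these markers in the other results was not tested.

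Repair and matrix genes rose with Timp1, an inhibitor of matrix metalloproteinases, at their head. Timp1 measured 9.88, 9.87 and 10.11 at 2.5 and 12.46, 12.40 and 12.63 at 40 (log2 fold change 2.54, SE 0.416, adjusted p = 1.25e-05). The highest control was 10.75, below every sample at 40. It was the only one of 13 metalloproteinase and inhibitor genes to pass. Of 19 wound matrix genes 10 rose and 0 fell, with a median of 0.73, including Col1a1, a collagen I chain, by 0.99 and Thbs1 and Tnc, matrix glycoproteins of injured tissue, by 0.88 and 0.86. Complement genes showed 7 of 14 higher, led by the anaphylatoxin receptor C3ar1 (1.25) and by Cfb (1.17). Ch25h, which oxidises cholesterol to a signalling sterol, rose by 1.69 and Ptgs1, cyclooxygenase 1, by 1.09.

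Cholesterol synthesis rose at the top dose. Fdps, which makes farnesyl diphosphate, measured 11.77, 11.85 and 11.92 at 2.5, 11.87, 12.08, 12.16 and 11.80 at 10, and 12.64, 12.96 and 12.88 at 40, against 11.94 to 12.14 in the controls. It was thus higher at 40 than in any sample of the other 3 groups, and rose by 0.98 from 2.5 (adjusted p = 3.06e-08). Idi1 rose by 1.01, Lss by 0.71 and Hmgcs1 by 0.69. Of 16 genes of this pathway 7 rose from 2.5 to 40, with a median of 0.50 and 2 to 8 rises over all alternatives. From 10 to 40, 7 rose, though a fit of the groups compared alone called 0 genes (limma, 2431 at an unadjusted p under 0.05). From 2.5 to 10 the count was 0 by limma, also at an unadjusted p under 0.05, with a median of 0.02.

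Of 17 genes of copper and metal handling 3 rose and 0 fell, while 1.94% of all genes rose. Steap4, a metalloreductase of copper and iron, rose from 6.93, 6.83 and 7.03 to 8.68, 8.55 and 8.46 (log2 fold change 1.63, SE 0.214, adjusted p = 1.29e-07). Mt2, a metallothionein that binds copper and zinc, measured 11.26, 11.48 and 11.48 at 2.5 and 12.80, 12.60 and 12.78 at 40 (1.32, adjusted p = 0.00239). Its samples at 40 were above the highest control (12.14), and 1 of the 4 samples at 10 reached 12.65 while the others stayed at 11.19 to 11.56. The metal transporter Slc39a14 was the other rise (0.65, a call lost whichever sample was left out, adjusted p 0.0644 to 0.149), and the list median was 0.10. The copper importer Slc31a1 (-0.03, 95% confidence interval -0.17 to 0.12) and the exporter Atp7a (-0.13, -0.28 to 0.02) did not pass the test.

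Of 21 targets of Nrf2, the regulator of antioxidant genes, 2 rose and 2 fell, with a median of 0.17. Hmox1, heme oxygenase 1, rose by 1.40 (adjusted p = 0.0109), from 9.79, 9.80 and 10.22 to 11.36, 11.21 and 11.44, above the highest control of 10.81, a call lost without replicate 1 at 2.5 (1.30, adjusted p = 0.0609). Gclc, the rate-limiting enzyme of glutathione synthesis, rose by 0.92. The glutathione transferases Gstm1 and Gsta3 fell by 0.80 and 0.76, the latter a call lost without replicate 1 or 2 at 2.5 or without any sample at 40 (adjusted p 0.0681 to 0.124). Nqo1, another classical target, had a log2 fold change of -0.17 (95% confidence interval -0.60 to 0.26).

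Of the genes the study singled out as markers of allergic airways, Il33 and Ccl17 rose as given above. Il4 (0.24, adjusted p = 0.69), Il13 (-0.25, adjusted p = 0.339), Ccl11 (-0.26, adjusted p = 0.723), Ccl24 (0.10, adjusted p = 0.94), Muc5ac (0.17, adjusted p = 0.911) and Muc5b (-0.09, adjusted p = 0.95) did not pass the test. For Il13, the type 2 cytokine that drives mucus, no sample of any CuO PEG dose was well above background. The intervals for the mucins were wide, -0.81 to 1.15 for Muc5ac and -0.89 to 0.71 for Muc5b. Clca1, a secreted goblet cell protein, had a log2 fold change of -2.09 with an SE of 0.999 (adjusted p = 0.229).

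Several of the largest changes lay outside these groups. Slc26a4, the anion exchanger pendrin of airway epithelium, rose from 8.88, 9.24 and 9.05 to 11.62, 11.90 and 11.60 (log2 fold change 2.65, adjusted p = 1.55e-06), and Vnn1, a pantetheinase, rose from 7.36, 6.87 and 6.99 to 9.29, 9.46 and 9.56 (2.36, adjusted p = 4.79e-11). Neither group of values overlapped with its controls at 40, whose maxima were 9.12 and 7.36. Igfbp3, a binding protein of insulin-like growth factors, fell from 13.04, 12.81 and 12.96 to 11.06, 11.05 and 10.84 (-1.96, SE 0.205, adjusted p = 8.8e-10), and the lowest control was 12.65. Colq, a collagen-like tail of acetylcholinesterase, fell by 1.43 (adjusted p = 4.91e-06), and Rnase2a, a further ribonuclease of the Ear family, by 1.53. Cyp2a5, a cytochrome P450 of club cells, fell by 1.80 (adjusted p = 0.00727), but its samples at 2.5 spread over 13.44, 12.77 and 11.89. Cyp2a4, a near-identical gene, fell by 1.71, and neither passed without replicate 1 at 2.5 (Cyp2a5 -1.35, adjusted p = 0.123, and Cyp2a4 -1.25, adjusted p = 0.133). Tcap, a titin-binding protein of striated muscle, fell by 1.80 (adjusted p = 0.0252), a call lost without replicate 1 or 2 at 2.5 or replicate 1 or 3 at 40 (adjusted p 0.0761 to 0.17).

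The 4 samples at 10 were compared with both ends. From 2.5 to 10, 128 genes changed (0.559%), 92 up (0.402%) and 36 down (0.157%, or 63 and 7 with 75th percentile scaling, which moved the median of all genes by 0.15), and from 10 to 40, 311 (1.36%), 240 up (1.05%) and 71 down (0.31%). These comparisons share samples with each other and with the step from 2.5 to 40. Leaving out replicate 1 at 10 gave 473 and leaving out replicate 4 gave 196 for the step from 10 to 40, and the step from 2.5 to 10 gave 51 without replicate 3 at 2.5, 67 without replicate 2 at 2.5 and 79 without replicate 3 at 10. With a term for each hybridisation the counts were 8 and 20, and in fits of the groups compared alone 34 and 0, where limma gave 2431 genes at an unadjusted p under 0.05 for the step from 10 to 40. Of the 445 rises the mean at 10 was between the other means in 406, above the mean at 40 in 10 and below that at 2.5 in 29. Of the 158 falls it was between in 146.

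The lists differed in where the change lay in the main fit. In the fit of the groups compared alone, 0 genes were called from 10 to 40 (limma, 2431 at an unadjusted p under 0.05). No list call given here for that step held in it. The mitotic list had a median of 0.52 from 2.5 to 10 and 0.91 from 10 to 40, with 9 and 24 members called, and all 25 means at 10 were between the others. The 9 became 2 without replicate 1 at 10 or replicate 2 at 2.5, 4 without replicate 3 at 10 and 1 without replicate 3 at 2.5. Mki67 at 10 measured 10.33, 9.81, 10.27 and 9.69, above every sample at 2.5 and below every sample at 40. Saa3 had most of its difference below 10, where it measured 14.06, 13.97, 13.91 and 12.94, a log2 fold change of 2.81 from 2.5 (adjusted p = 0.00287) and of 1.24 from 10 to 40 (adjusted p = 0.244). Alveolar macrophage markers had a median of -0.06 from 2.5 to 10 with 0 called (5 at an unadjusted p under 0.05) and of -0.86 from 10 to 40 with 8 called, or 5 without replicate 2 at 40. Fpr1 gave 9.90, 9.72, 9.58 and 9.81 at 10, around the values of 9.78, 9.75 and 9.78 at 2.5, before 8.66, 8.13 and 8.40 at 40. Timp1 and Slc26a4 likewise rose by 2.04 and 2.13 from 10 to 40, while the differences of 0.51 and 0.52 from 2.5 to 10 did not pass the test.

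**Figure D3:**
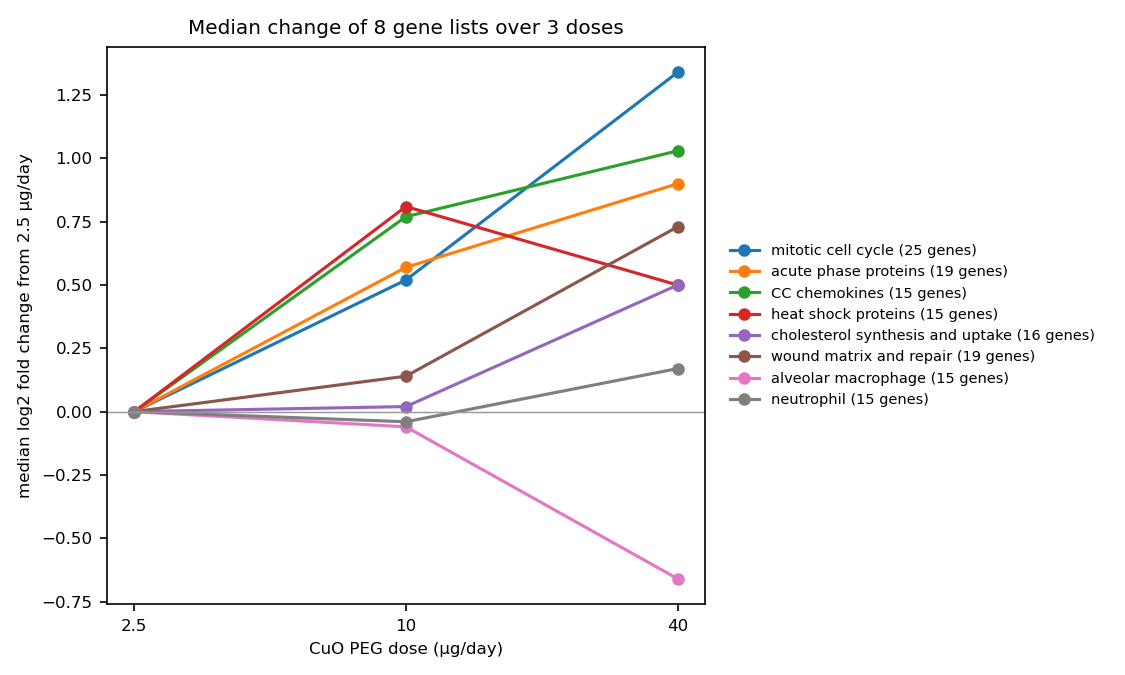
Median log2 fold change from 2.5 μg/day for 8 gene lists at 2.5, 10 and 40 μg/day of CuO PEG (points joined by lines, doses at equal spacing). Heat shock genes peak at 10 with 0.81, alveolar macrophage genes stay near 0 at 10 and reach -0.66 at 40.

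CuO NH3 was run on the same slides at the same doses by mass, and its step from 2.5 to 40 changed 1686 genes (7.36%), 917 of them up (4%) and 769 down (3.36%). The steps of CuO PEG and CuO NH3 themselves differed for 626 genes (2.73%). Of these, 17 had steps of the same sign with the larger in CuO PEG, and 269 the same sign with the larger in CuO NH3. In 340 the fitted signs were opposite, whatever the size of either step. The count of genes with differing steps was 339 with 75th percentile scaling and 41 with a term for each hybridisation. Cxcl5 went from 5.89 ± 0.19 to 9.77 ± 0.46 (SD, n = 3) under CuO PEG and from 9.54 ± 0.64 to 9.25 ± 0.69 under CuO NH3, a difference of steps of 4.18 (SE 0.743, adjusted p = 0.00016). Saa3 under CuO NH3 was already at 15.45 ± 0.49 at 2.5 and at 15.59 ± 0.55 at 40, and the difference of steps was 3.91 (SE 0.826, adjusted p = 0.00169). For both genes the CuO NH3 level at 2.5 was as high as the CuO PEG level at 40 within the spread. Saa1 differed by 3.20 and the Ly6 protein Ly6i by 3.12, which under CuO NH3 fell from 8.29 ± 0.28 to 7.03 ± 0.16. Retnlb, a resistin-like molecule of mucosal epithelium, differed the other way by -3.63 (adjusted p = 1.3e-05), since it went from 6.33 ± 0.16 to 7.12 ± 0.14 under CuO PEG and from 6.72 ± 0.48 to 11.14 ± 0.09 under CuO NH3. As it was not well above background in any sample of CuO PEG at 2.5, the size of this difference is not exact, which also holds for Cxcl5. With a term for each hybridisation neither Retnlb (-2.62, adjusted p = 0.0777) nor Ly6i (2.96, adjusted p = 0.139) passed.

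**Figure D4:**
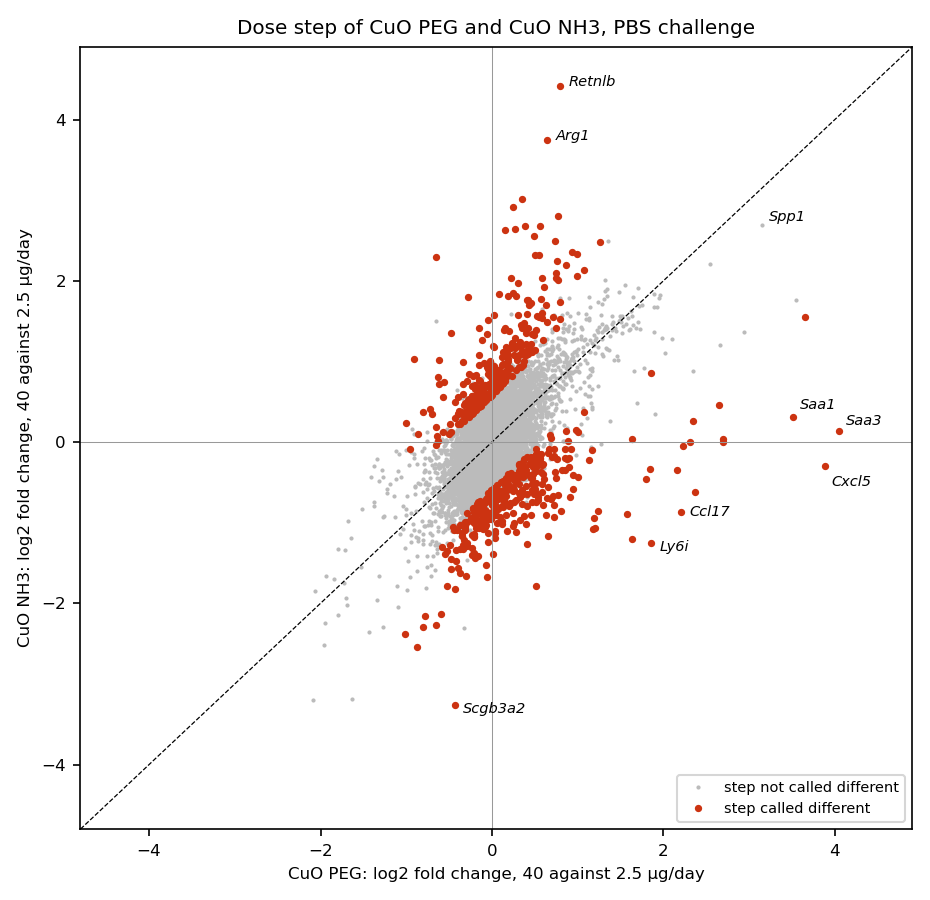
Log2 fold change from 2.5 to 40 μg/day of CuO PEG (horizontal) and CuO NH3 (vertical) for each gene, with genes whose steps were called different in red and equality as a dashed line. Cxcl5, Saa3 and Saa1 lie far right near 0 on the vertical axis, and Retnlb lies high with a small CuO PEG step.

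By lists, 0 of the 25 mitotic genes differed between CuO PEG and CuO NH3 (limma, 1 at an unadjusted p under 0.05), and under CuO NH3 25 rose with a median of 1.40. The MHC class II list, genes that present antigen to T helper cells, had 0 of 10 called for CuO PEG (4 at an unadjusted p under 0.05, median 0.15) and 7 lower for CuO NH3 (median -0.86), and 7 differed by the test. H2-Ab1 measured 13.92 ± 0.12 and 13.96 ± 0.10 at the ends of the CuO PEG step and went from 14.05 ± 0.11 to 12.95 ± 0.14 under CuO NH3 (difference of steps 1.14, adjusted p = 8.64e-05). Cd83, a maturation marker of dendritic cells, differed by 2.29 (adjusted p = 7.61e-08). Of the 15 neutrophil markers 10 rose under CuO NH3 (median 1.06), and 4 differed between the materials. Of 19 acute phase genes 9 differed (5 without replicate 1 of CuO NH3 at 40), and of 15 heat shock genes 8.

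Core CuO lay on slides 1 to 3, so each step was taken within its own slides. Its step changed 1282 genes (5.6%), and 313 genes (1.37%) had steps that differed from CuO PEG. Steps of the same sign were larger in CuO PEG for 16 of these and larger in core CuO for 105. For 192 the fitted signs were opposite, whatever the size of either step. Leaving out replicate 3 of core CuO at 2.5 gave 179 genes with differing steps and leaving out its replicate 2 at 40 gave 195. A term for each hybridisation gave 6, none of them among the 5 genes named next (adjusted p 0.209 to 0.588). The leading genes were again Cxcl5 (4.46, SE 0.785, adjusted p = 0.000246), Saa3 (3.79, adjusted p = 0.00855), Saa1 (3.24) and Ly6i (3.23). Core CuO at 2.5 gave 9.89 ± 0.40 for Cxcl5 and 15.40 ± 0.46 for Saa3. Stfa1, a stefin A protease inhibitor with near-identical copies, differed by -3.22 (SE 0.577, adjusted p = 0.000331), from 7.36 ± 0.54 to 7.60 ± 0.24 under CuO PEG and from 6.49 ± 0.18 to 9.95 ± 0.43 under core CuO. Of the MHC class II list 7 of 10 differed, and of the mitotic list 0 of 25 (2 at an unadjusted p under 0.05).

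**Figure D5:**
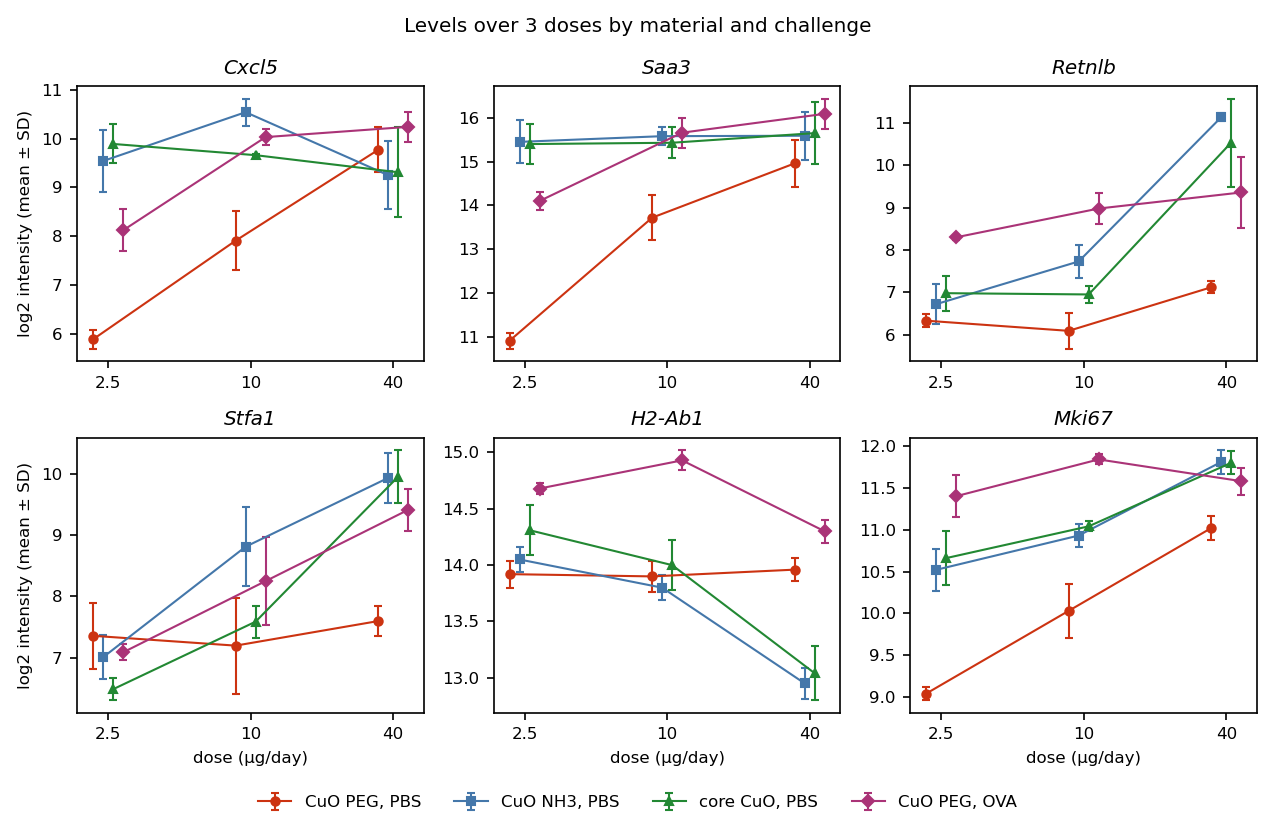
Mean log2 intensity ± SD of 6 genes at 2.5, 10 and 40 μg/day for CuO PEG, CuO NH3 and core CuO after PBS challenge and for CuO PEG after OVA challenge (n = 3 or 4). After PBS, CuO PEG starts lowest for Cxcl5, Saa3 and Mki67, and for H2-Ab1 the CuO NH3 and core CuO means at 40 lie below those at 2.5.

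In OVA-challenged mice the same step of CuO PEG changed 335 genes (1.46%). The step differed between challenges for 52 genes (0.227%), 51 of them (0.223% of all genes) with the more positive step after PBS, but this count ranged from 1 to 117 over the alternatives. It was 1 without replicate 3 of CuO PEG 2.5 after OVA, 7 without replicate 2 of CuO PEG 40 after PBS, 3 with 75th percentile scaling and 1 when only slides 4 to 6 were fitted. Leaving out any of 6 further samples gave 17 to 30, namely replicate 2 of CuO PEG 2.5 and of CuO PEG 40 after OVA, and any of CuO PEG 2.5 or replicate 3 of CuO PEG 40 after PBS. Mki67 went from 11.40 ± 0.25 to 11.58 ± 0.16 after OVA, against 9.04 ± 0.08 and 11.02 ± 0.14 after PBS (difference of steps 1.80, SE 0.256, adjusted p = 8e-05), and the OVA controls were already at 11.39 ± 0.24. It was called in 25 of 25 alternatives. Of the mitotic list 13 of 25 differed, with 1 to 20 over the alternatives, 1 without replicate 3 of CuO PEG 2.5 after OVA and 4 without replicate 2 of CuO PEG 40 after either challenge. Slc26a4 stood at 12.95 ± 0.78 and 13.25 ± 0.16 after OVA (difference 2.35, adjusted p = 0.036), a call that held in 10 of 25 alternatives and in 2 of the 12 that left out a sample, and Ccl17 was at 10.60 ± 0.38 at 2.5 after OVA (difference 1.80, adjusted p = 0.0114), which did not pass without replicate 3 of CuO PEG 2.5 after OVA (adjusted p = 0.123) or replicate 2 of CuO PEG 40 after PBS (adjusted p = 0.0713). H1f5, a linker histone, differed by 1.67 (adjusted p = 0.013) and was called in 18 of 25, not without replicate 3 of CuO PEG 2.5 after OVA (adjusted p = 0.144) nor without replicate 2 of CuO PEG 40 after OVA (adjusted p = 0.0626) or PBS (adjusted p = 0.0583). Alas2, the first enzyme of heme synthesis in red cells, differed by 1.65 (adjusted p = 0.0478), falling by 1.01 after PBS and by 2.66 after OVA. It was called in 8 of 25, not with the replicate number as a block (adjusted p = 0.0845). Leaving out any sample but replicate 1 of CuO PEG 40 after PBS also lost the call (adjusted p 0.055 to 0.177).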

How the data were processed

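Lung RNA of the 6 samples compared, the 4 samples at 10 and the other groups of the series was measured on 2-colour Agilent mouse arrays, 1 pool of 2 RNA samples per channel. The authors deposited, for each array, unnormalized Feature Extraction output (version 12.0.2.2 in the headers) with median foreground and local background intensity per spot and channel, and a table of log2 values per probe that the authors had quantile normalised. That table orders the probes of each sample as its scanner channel does, and it was used as an alternative. Here the median foreground of the channel holding each sample was log2 transformed with no background correction, then quantile normalised across 89 samples. The 3671 control spots and outlier-marked spots were left out, and the 62976 spots were averaged to 56605 probes and, for the 32994 probes with a gene in a RefSeq table, to 22911 genes. The other 23611 probes were not used. A gene read by near-identical copies is uncertain, since probe sequences were not compared between genes.

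Groups, doses and replicate numbers came from the sample labels. One limma fit (version 3.58.1, R 4.3.3) held 26 groups with dye, slide and array position as fixed terms and 50 residual degrees of freedom. p-values were adjusted by Benjamini-Hochberg over all genes, and calls needed both an adjusted p below 0.05 and a log2 fold change larger than 0.58 in size. Differences between steps were contrasts of the same fit. Values per sample are after removal of dye, slide and position. The number of arrays limits precision. "At least" folds compare the brighter group with the lowest signal well above background, or the dim probe's own where higher. Of the 603 called genes, 439 rested on 1 probe and 164 on several, and for 1 of these any probe had the opposite sign.

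The genes named were the 12 largest rises and 12 largest falls among called genes without overlap, up to 4 called members of a list, genes the study singled out and the 5 largest differences of steps. A few others were added after their values were seen, such as Vnn1, Dnajb1, Hspa8, S100a8, Clca1, H2-Ab1, Cd83 and the promoter genes. The genes, lists and comparisons were chosen with earlier results of these data known. Alternatives were normexp with an offset of 50, 75th percentile scaling, dim probes left out, the deposited table, the brightest probe, other batch terms, ComBat, fewer samples and leaving out each sample. Promoters were RefSeq sequences of GRCm38.p6, searched with Python 3.11.15, and figures were drawn with matplotlib 3.10.9.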

Additional observations from a re-analysis of the deposited data

Results flagged for a closer look

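Single samples stood apart within a group, by Dixon's test at the 95% level, for 24 of 246 gene and group pairs over 123 genes, 14 at the dose of 10 and 10 in the controls. Chance gives such a mark in about 1 of 20 groups. The groups of 3 samples at 2.5 and 40 are too small for this test.

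At 10, replicate 1 was the highest sample for Clec4d (10.32, next 9.60), Il6 (7.06, next 5.90), Nfkb2 (9.94, next 9.68), Slc39a14 (8.16, next 7.78), Stfa1 (8.37, next 6.85) and Stfa2 (9.32, next 8.36). The same sample was the lowest for Gstm3 (14.26, next 14.46), Hbb-bt (15.29, next 15.83) and Igfbp3 (12.10, next 12.47). Replicate 3 was the highest for the sterol enzyme gene Hmgcs1 (12.67, next 12.32) and for Manf, which encodes a factor of the endoplasmic reticulum (11.24, next 10.99). Replicate 4 was the lowest for Lcn2 (13.24, next 13.79) and Saa3 (12.94, next 13.91), and replicate 2 for Tnc (6.34, next 6.73).

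In the controls, replicate 4 was the highest for Ccl3 (8.08, next 7.42), Ccl4 (7.99, next 7.24), the replication gene Mcm2 (7.88, next 7.73), Mt2 (12.14, next 11.60) and Saa1 (9.44, next 8.62). Replicate 3 was the highest for Colq (11.99, next 11.52) and replicate 1 for S100a8 (12.91, next 12.36). Replicate 1 was the lowest for Hmox1 (8.15, next 9.87), and replicate 6 was the lowest for Muc5b (9.51, next 10.22) and Tcap (10.04, next 11.64).

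The step from 2.5 to 40 differed between CuO PEG and other groups by limma contrasts with Benjamini-Hochberg adjustment, for 626 genes against CuO NH3, 313 against core CuO and 52 between PBS and OVA challenge. Against CuO NH3 the largest differences of log2 fold changes were Cxcl5 (4.18), Saa3 (3.91), Retnlb (-3.63), Saa1 (3.20) and Ly6i (3.12). Sizes for Cxcl5 and Retnlb are not exact, since neither was well above background in CuO PEG at 2.5. Against core CuO they were Cxcl5 (4.46), Saa3 (3.79), Saa1 (3.24), Ly6i (3.23) and Stfa1 (-3.22). Between challenges they were Slc26a4 (2.35), Ccl17 (1.80), Mki67 (1.80), H1f5 (1.67) and Alas2 (1.65), and the report gives how these calls moved with single samples.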

How the results depend on the processing

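The alternatives were followed one by one for 123 genes, which leave out some named genes such as Ccnb2, Cdc20, Fpr2, Pparg and Abcg1. No called value of the 123 reversed its sign under any alternative run. The values of 61 and 66 of them moved by more than their spread within slide 4 or slide 5 alone. In pairs sharing slide and dye, an alternative chosen after the data were seen, 36 did. Over all called genes, signs were kept by 602 of 603 under the term for each hybridisation and with the brightest probe for the step from 2.5 to 40. The former kept 624 of 626 against CuO NH3 and 127 of 128 from 2.5 to 10, and the latter 312 of 313 against core CuO. With 75th percentile scaling 426 of the 603 genes were called again. For the step from 2.5 to 40, a term for each hybridisation raised the count from 603 to 996 genes, 461 of the 603 among them, and every other alternative was within 1.5 times. The same term gave 20 from 10 to 40, 8 from 2.5 to 10, 41 for the difference from CuO NH3, 6 from core CuO and 5 between challenges. With 75th percentile scaling these were 176, 70 and 339 and, between challenges, 3. Without batch terms they were 72 from 2.5 to 10, 173 for core CuO and 12 between challenges. Fits of the groups compared alone gave 0 from 10 to 40 (limma, 2431 at an unadjusted p under 0.05), 34 from 2.5 to 10 and 93 for core CuO. Between challenges, ComBat gave 117 and slides 4 to 6 alone 1. Leaving out each sample gave 499 to 596 genes from 2.5 to 40, 196 to 473 from 10 to 40, 51 to 157 from 2.5 to 10, 490 to 658 for CuO NH3, 179 to 435 for core CuO and 1 to 72 between challenges. The causes were not tested.

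Same-numbered samples at 2.5 and 40 did not deviate together throughout (correlations of 0.095, 0.259 and 0.125 before and 0.125, -0.046 and 0.088 after adjustment for dye, slide and position, against -0.148 to 0.001 before and -0.167 to 0.076 after for other pairings). Not every pair exceeded 0.1 in either, so the replicate numbers were not taken as pairs. With the replicate number as a block in place of slide and position, 677 genes passed from 2.5 to 40, 375 from 10 to 40, 100 from 2.5 to 10, and 619, 285 and 41 for the differences. Of the genes named and followed one by one, the block changed the calls of Il6, Alas2 (between challenges) and Pcna (0.58, below the fold). Genes with no sample well above background at 2.5 have only a lower bound for that step, and differences of steps that use it are not exact.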

Other observations

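Several further gene groups were noticed in the values and collected afterwards, so their counts are a description of these samples only. Over all genes, 1.94% rose and 0.69% fell from 2.5 to 40, and 0.402% rose from 2.5 to 10. Genes of DNA replication rose in 21 of 33 cases from 2.5 to 40 with a median log2 fold change of 0.78, among them Mcm2, a subunit of the replicative helicase (0.92), and Pcna, its sliding clamp (0.58). Rrm2, named with the mitotic genes, is among these 21. Of 55 histone genes 19 rose. Of 20 chaperones of the endoplasmic reticulum 6 rose, with Sdf2l1 by 1.17 and Manf by 0.68 (0.57, below the fold threshold, without replicate 1 at 40), and 5 rose already from 2.5 to 10.

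Genes of foreign-compound metabolism fell in 16 of 35 cases with a median of -0.60, such as the glutathione transferase Gstm3 (-0.87) and the cytochrome P450 Cyp2e1 (-0.66), the latter a call lost whichever sample was left out (adjusted p 0.0563 to 0.156). Of 30 striated muscle genes 9 fell, with a median of -0.96, among them Ryr2, the calcium release channel of heart muscle (-0.67, a call lost without replicate 1 or 2 at 2.5 or replicate 1 or 3 at 40, adjusted p 0.128 to 0.273), and of 14 adipocyte genes 4 fell, of which Cidec and Pparg also stand among the alveolar macrophage markers. Of 7 measured stefin A and cystatin A genes, several of them near-identical, 0 passed for CuO PEG (limma, also 0 at an unadjusted p under 0.05), while 6 had steps that differed from CuO NH3 and 5 from core CuO.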
